A study of Mus musculus with 2 samples.

Results

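The genes described here encode intermediate filaments and dense body proteins of mesenchyme and muscle. There are 10 of them, chosen by name among 21238 genes tested: Des, Vim, Synm, Nes, Flna, Actn1, Actn2, Vcl, Pgm5 and Nexn. On each array 17 of 39429 non-control probes carry these gene names, on 26 spots, and 15 of the 17 probes passed the filter on dim signal, so that every member had at least 1 tested probe. The tissue was the ureter of NMRI mouse embryos, dissected at E14.5, and its RNA was measured on 2 Agilent arrays that read a red and a green dye from each spot. On either array the genotypes set against each other were Smad4cKO, which is Tbx18(cre/+);Smad4(fl/fl), and a control, which is Tbx18(+/+);Smad4(fl/+). On array 1 both RNAs were female, the control carrying AlexaFluor647 (red) and Smad4cKO AlexaFluor555 (green) by the labels. On array 2 both were male and the dyes were the other way round. Cre made from the Tbx18 locus acts in the mesenchyme around the ureter, and the mutants thereby carry a Cre allele at Tbx18 that the controls lack, whose effect cannot be told apart from that of Smad4 loss. The controls carry 1 floxed Smad4 allele and no Cre. The number of embryos behind an RNA, and their litters, are not stated in the labels. The p-values draw on the spread between the 2 arrays, which differ in sex and dye, and mostly on that spread over all genes. How far they hold for other embryos is therefore not known.

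Intermediate filaments are rope-like polymers that give a cell tensile strength, and their subunits mark cell types: vimentin is made by most mesenchymal cells, desmin by muscle, and nestin by neural progenitors and other immature cells, while synemin joins filaments of desmin or vimentin. In smooth muscle the actin filaments and desmin filaments meet at dense bodies in the cytoplasm and at adhesion plaques of the membrane, the counterparts of the Z-discs of striated muscle. Alpha-actinin and filamin crosslink actin there, and vinculin ties actin to integrins at the plaque. The ureteric mesenchyme forms the smooth muscle coat that moves urine by peristalsis, and SMAD4 is the shared partner of the SMADs that carry BMP and TGFB signals.

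Each probe is a DNA oligo of 60 bases. The sequences are shown for Des and Actn2, whose mean ratios over the arrays were the largest among the members. Those of Actn1, the alpha-actinin of non-muscle cells and smooth muscle, and of Pgm5 are shown too. For Des, Actn1 and Actn2 it is the probe that gave the gene's values. For Pgm5 it is 1 of 3 probes, and the gene's values and test come from the brightest, at chr19:24757846-24757905. They are written 5′ to 3′ in the sense of the transcript, with mm9 positions as in the scanner files.
Des, chr1:75363404-75363629, plus strand: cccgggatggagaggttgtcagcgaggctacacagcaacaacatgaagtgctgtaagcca
Actn1, chr12:81269446-81269882, minus strand: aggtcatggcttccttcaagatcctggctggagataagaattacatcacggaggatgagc
Actn2, chr13:12364990-12367362, minus strand: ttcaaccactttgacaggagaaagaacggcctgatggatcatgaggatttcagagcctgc
Pgm5, chr19:24894676-24894735, minus strand: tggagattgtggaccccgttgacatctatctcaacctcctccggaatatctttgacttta
The Des probe covers 226 genomic bases, the Actn1 probe 437 and the Actn2 probe 2373, so each of these is split across exons of its gene and reads spliced RNA. The Pgm5 probe covers 60 unbroken genomic bases.

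Across the 4 channels, 68.3% to 70.3% of spots were well above background, the median signal was 8.79 to 10.8 times the local background, and 0 non-control spots were saturated. All 8 smooth muscle, all 11 urothelial and all 8 ureteric mesenchyme markers listed were tested. That is, they were well above background in the same labelled group on both arrays. So were all 11 neuronal and glial, all 11 endothelial and pericyte and all 8 macrophage markers, and 26670 of 39429 probes. Passing this filter therefore does not identify the tissue. All ratios below are log2 values, with the channel labelled Smad4cKO divided by the channel labelled control, so that a positive value means brighter in the former. The study's own values run the other way under titles that name Smad4cKO first: in the authors' deposited table Des has a signed fold of -1.75 on array 1 and -1.69 on array 2, a quotient of control to Smad4cKO if the dyes are as labelled. Should the dyes of both arrays be labelled the wrong way round, brighter and dimmer trade places throughout, with the same sizes and tests. Smad4 itself gave -0.69 on array 1 and -0.14 on array 2 (limma adjusted p = 1.00). Tbx18, whose locus carries the Cre allele in the mutants, gave 0.07 and 0.81 (limma adjusted p = 1.00). Where these probes lie relative to the deleted part of Smad4 or the inserted Cre is not stated in the labels, so neither gene settles the direction.

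Desmin had the largest mean ratio of the members. Des was brighter in the channel labelled Smad4cKO by 1.64-fold on array 1 and 1.63-fold on array 2, and it was the only member past a rule of size, with no test, that asks for 1.5-fold or more one way on each array. Of all tested genes 0.49% passed it in that direction. In the other direction 0 members passed, against 0.523% of all genes, and the largest was Actn2. Vim passed 1.5-fold on both arrays in opposite directions, as did 1.25% of all genes. The test against 0 was limma's moderated test over all 21238 genes with Benjamini-Hochberg adjustment and a threshold of 0.05. It called 0 members (0% of all genes were called brighter and 0.00471% dimmer), and at an unadjusted p under 0.05 it held 2 members, Des and Actn2, where 5.11% of all genes did. With an intensity trend and robust estimation limma called these 2 members, with adjusted p = 2.9e-04 for Des and adjusted p = 0.0016 for Actn2, while 705 genes were called in all. Of the 10 members, 2 were brighter on both arrays (Des and Synm), 3 dimmer (Actn1, Actn2 and Pgm5), and 5 changed sign, beside 19.9%, 19.8% and 60.3% of all genes. From processed signals these counts were 3, 3 and 4, and with median centring 3, 2 and 5. The members' median was 0.06, with -0.19 on array 1 and 0.13 on array 2, beside 0.0047 over all genes tested.

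**Figure D1:**
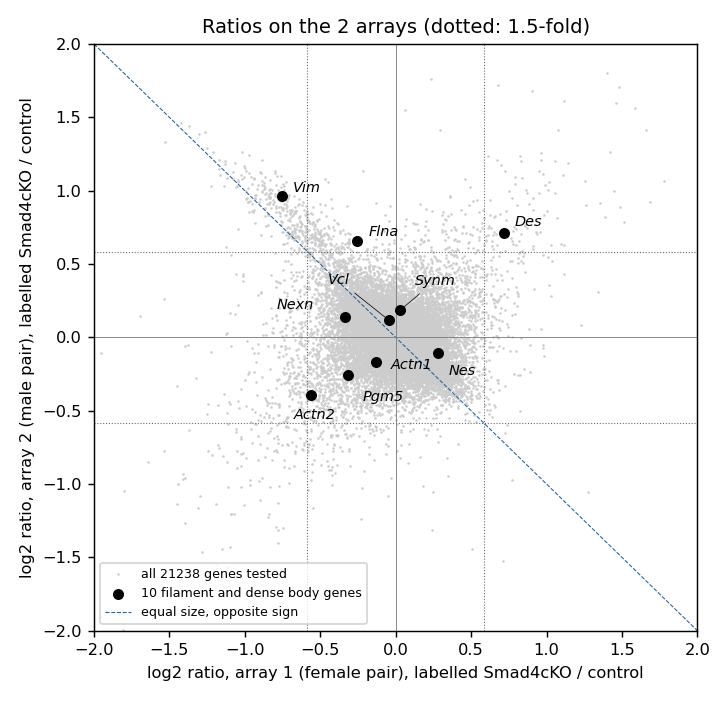
Log2 ratios of labelled Smad4cKO over labelled control on array 1 (horizontal) and array 2 (vertical) for all 21238 tested genes (grey) and the 10 members (black, named), with dotted lines at 1.5-fold; 11 genes lie outside the axes. Des lies past both lines at the upper right, Vim past both at the upper left, and the other 8 members lie within 1.5-fold on at least 1 array.

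Among the intermediate filament genes, Des was measured by 10 spots on each array. On array 1 the processed signals (intensities after the scanner software's background subtraction and dye normalization) of the labelled control lay between 535 and 579 with a median of 562, and those of the labelled Smad4cKO between 931 and 1022.5 with a median of 981. On array 2 the labelled control gave 618 to 736 with a median of 678, and the labelled Smad4cKO 1095 to 1220.2 with a median of 1141. In both pairs all 10 spots of the labelled Smad4cKO were brighter than all 10 of the labelled control, and the pairs differed in dye and in sex. Spots are repeated readings of the same RNA and not replicates: the SD of the log2 ratio among the 10 spots was 0.05 on array 1 and 0.06 on array 2. Over the 399 probes with 10 spots the median of that SD was 0.049 and 0.054. How many of those probes also separated fully was not counted. The mean log2 ratio was 0.71 ± 0.13 (limma's moderated SE, n = 2, adjusted p = 0.222), with 0.71 on each array. A smaller of the 2 ratios at least as high as that of Des was found for 66 of the tested genes (0.311%). From the processed signals the ratio was 0.78, and limma then called Des (adjusted p = 0.0455) among 303 genes in all. Besides trend and robust estimation, given above, other scalings did not call it. Limma adjusted p was 0.99999 with median centring, 0.129 with normexp offset 10 and 0.083 from the authors' deposited values. In whole ureters, a larger share of muscle cells and more desmin RNA per cell cannot be told apart, here or for the genes below.

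**Figure D2:**
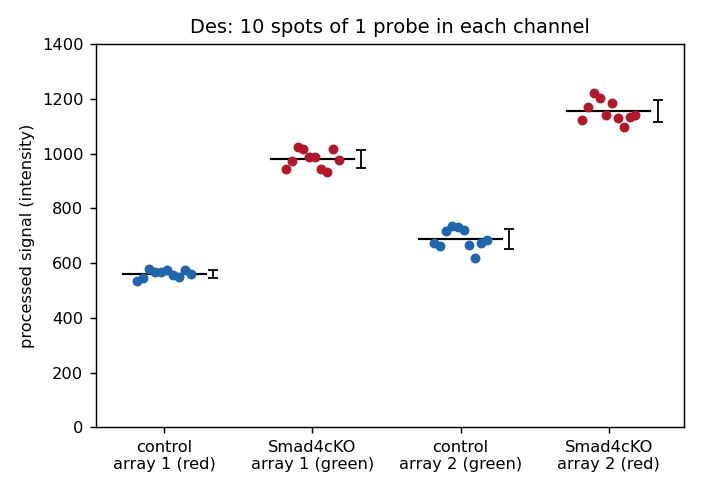
Processed signal (intensity, vertical axis from 0) of the 10 spots of the Des probe in each of the 4 channels, with the mean as a line and the SD over spots as a bar. The labelled control spots lie between 535 and 736 and the labelled Smad4cKO spots between 931 and 1220.2, with no overlap on either array.

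Vim, the main filament gene of mesenchymal cells, was the brighter in the red channel on both arrays, whichever genotype that channel held by the labels. Its processed signal was 15776 in the labelled Smad4cKO and 26513 in the labelled control on array 1, and 29314 and 15369 on array 2. The log2 ratios were -0.75 and 0.96 (mean 0.11 ± 0.38, SE, n = 2, limma adjusted p = 1.00). The mean of the red over green log2 ratios of Vim was 0.86. Of the 1636 genes whose probe was at least as bright as that of Vim, 250 (15.3%) passed 1.5-fold in opposite directions, against 1.25% of all tested genes. The sex of the pair changed together with the dye, and the 2 cannot be told apart.

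Nes, which encodes nestin, gave 6639 in the labelled Smad4cKO and 5653 in the labelled control on array 1, and 6423 and 6595 on array 2. It was brighter by 0.28 on array 1 and dimmer by 0.11 on the log2 scale on array 2, and the groups overlapped (mean 0.09 ± 0.15, SE, n = 2, limma adjusted p = 1.00). With median centring in place of loess its ratios were 0.08 and 0.11, brighter on both arrays. Synm, which encodes synemin, has 5 probes, all with low signals. Its brightest probe gave 69.0 and 68.2 on array 1 and 88.5 and 70.2 on array 2 (labelled Smad4cKO, then labelled control), with log2 ratios of 0.03 and 0.19. The other tested probes gave -0.13 and 0.09, and -0.02 and -0.12, so the signs of the tested Synm probes differed. The remaining 2 were not well above background in the same labelled group on both arrays and were not tested.

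**Figure D3:**
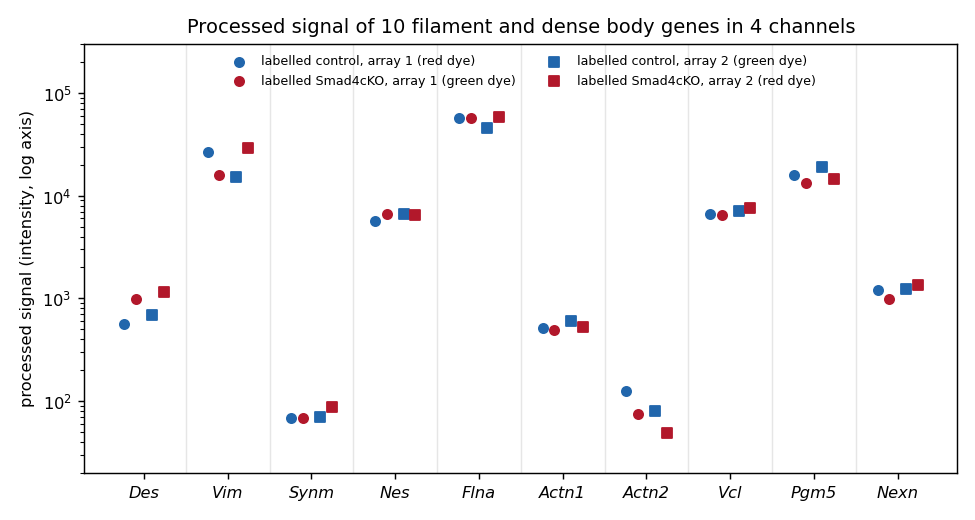
Processed signal (intensity, log axis) of the probe standing for each of the 10 members in the 4 channels; circles are array 1 and squares array 2, blue the labelled control and red the labelled Smad4cKO. For Des the labelled Smad4cKO value is the higher on each array, and for Vim the red-dye channel is the higher on each array. Levels are not comparable between genes because each probe has its own binding strength.

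Of the 3 actin crosslinkers, Actn2 had the largest mean ratio over the arrays, while Flna had the largest on a single array. ACTN2 is the alpha-actinin of the Z-disc in striated muscle. Its processed signal was 75.5 in the labelled Smad4cKO and 125 in the labelled control on array 1, and 49.1 and 79.7 on array 2. The labelled control was the brighter on each array, and by their ratios 19.8% of all tested genes were dimmer on both. The labelled Smad4cKO value of array 1 (75.5) lay close to the control value of array 2 (79.7). The log2 ratios were -0.56 and -0.39, or 1.47-fold and 1.31-fold, with a mean of -0.48 ± 0.13 (SE, n = 2, limma adjusted p = 0.534). These signals are low, and from processed signals the ratio was -0.73 and -0.70, past 1.5-fold on both arrays, with limma adjusted p = 0.07. Another probe, named in the files by an Ensembl transcript of the same gene and chosen after its values were seen, was above background on array 2 only and gave -0.02 and 0.02. Of 10 striated muscle markers tested, 3 were brighter and 5 dimmer on each of the arrays, with a median of -0.19, and Myf5 and Ckm were not tested for low signal. By the 1.5-fold rule Actc1, the cardiac actin gene, was brighter (0.73 and 1.13, but 0.53 on array 1 with median centring) and Myh3, the embryonic skeletal myosin gene, was dimmer (-0.71 and -0.73). Their summed processed signal was 17047 and 19271 in the labelled Smad4cKO, and 14254 and 16886 in the labelled control. That sum is mostly the signal of Actc1 and Tnnt1 (7706 and 7144 on array 1 in the labelled Smad4cKO, Tnnt1 being named after its values were seen), and it runs against the sign of the list's median. Their part in the Actn2 ratio was not tested.

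Actn1, the alpha-actinin of non-muscle cells and smooth muscle, gave 487 in the labelled Smad4cKO and 511 in the labelled control on array 1, and 525 and 601 on array 2. It was slightly dimmer on both arrays, at -0.13 and -0.17, with a mean of -0.15 ± 0.13 (SE, n = 2, limma adjusted p = 1.00), and it was not called. Flna, which encodes filamin A, gave 57327 and 57222 on array 1 and 57791 and 45183 on array 2, in the same order of channels. Its log2 ratios were -0.25 and 0.66, with a mean of 0.20 ± 0.23 (SE, n = 2, limma adjusted p = 1.00), and its mean red over green log2 ratio was 0.46. The probe of Flna is among the brightest on the arrays, with 1.54% of tested genes at least as bright, and of those 327 genes 68 (20.8%) passed 1.5-fold in opposite directions. From processed signals the array 1 ratio of Flna was 0.0027, and with median centring its ratios were -1.174 and 1.498, past 1.5-fold in opposite directions, so its size and its sign on array 1 differed between the scalings.

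At the adhesion plaque, the ratios of Vcl were within the error. Vinculin binds talin and actin where the plaque meets the membrane. The brighter of its 2 probes gave 6479 in the labelled Smad4cKO and 6669 in the labelled control on array 1, and 7543 and 7018 on array 2. The log2 ratios were -0.04 and 0.12 (mean 0.04 ± 0.13, SE, n = 2, limma adjusted p = 1.00), and the second probe gave 0.02 and 0.10. Vcl is also the only one of the 9 members with a RefSeq promoter window here whose window holds a CArG box, the element bound by serum response factor, which with myocardin drives contractile genes. Windows run from 250 bases before to 50 bases after the gene start, the motif is its own reverse complement in form, so that a search covers both strands, and 1.63% of 32851 promoter windows hold it. The stretch around it is shown as the 1 member promoter with a match, and a match is a description, not a binding site (RefSeq, GRCm38.p6, chr14:20929151-20929200, plus strand, CArG box in capitals, its first base at -227 from the gene start).
Vcl: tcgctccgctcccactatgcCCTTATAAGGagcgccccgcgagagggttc
The windows of Des, Vim, Synm, Nes, Flna, Actn1, Actn2 and Pgm5 held no match. CAGAC, the 5-letter SMAD binding element, searched on both strands as CAGAC or GTCTG, was found in the windows of Des, Nes and Pgm5, that is in 3 of 9 members, against 49.6% of all windows.

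Pgm5 encodes aciculin, a protein related to phosphoglucomutase that sits at adhesion plaques of muscle with dystrophin and utrophin. It has 3 probes, all tested, and all were the dimmer in labelled Smad4cKO on each array. The brightest gave 13423 in the labelled Smad4cKO and 15827 in the labelled control on array 1, and 14503 and 18895 on array 2, with log2 ratios of -0.32 and -0.26. The probe with the next highest signal gave -0.33 and -0.34, and the probe printed above -0.33 and -0.13. The differences were about 1.22-fold by the mean of the brightest probe, -0.29 ± 0.13 (SE, n = 2, limma adjusted p = 1.00), below the 1.5-fold rule and not called. With median centring in place of loess the brightest probe gave -0.69 and 0.14, so its sign on array 2 turned. Nexn, which encodes the actin-binding protein nexilin of Z-discs and cell adhesions, gave 982 and 1210.2 on array 1 and 1365 and 1248 on array 2 (labelled Smad4cKO, then labelled control). It was dimmer on array 1 (-0.34) and brighter on array 2 (0.14), with a mean of -0.10 ± 0.16 (SE, n = 2, limma adjusted p = 1.00).

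**Figure D4:**
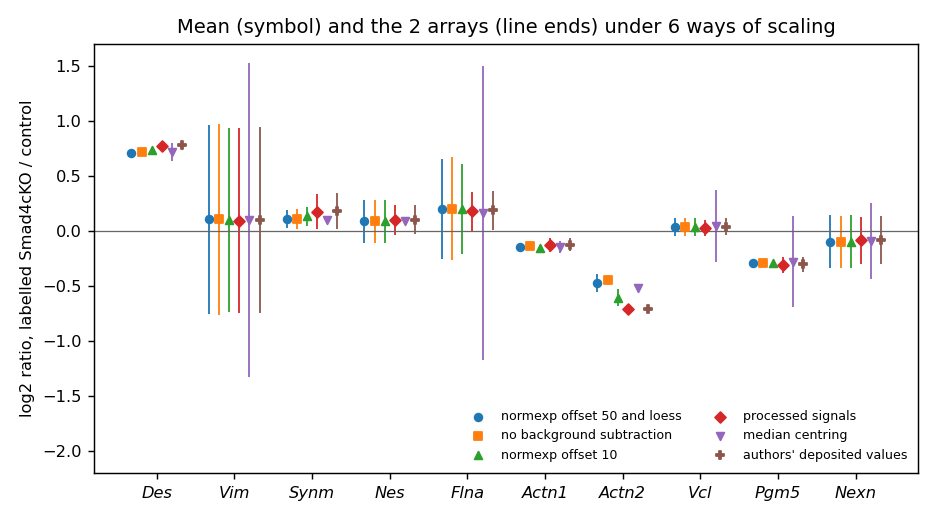
Mean log2 ratio (symbol) of labelled Smad4cKO over labelled control for the 10 members, with the values of the 2 arrays as line ends, under 6 ways of background correction and scaling. Des stays between 0.71 and 0.78 and Actn2 between -0.71 and -0.45, while the line of Vim crosses 0 in each of them, and those of Vim and Flna are longest with median centring (-1.33 and 1.53 for Vim).

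Other genes of the same structures were counted from lists chosen by function, with earlier results of these data known. Of 18 other intermediate filament genes 17 were tested (Gfap was not, for low signal), and 4 were brighter and 7 dimmer on each array, with a median of 0.05. By the 1.5-fold rule 0 were brighter and 3 dimmer: the neuronal filament genes Prph (-1.03 and -0.69), Nefm (-1.03 and -0.68) and Nefl (-1.06 and -0.64). With median centring Nefl (-0.53 on array 2) and Nefm (-0.58 on array 2) fell short of the rule. Of 16 tested crosslinkers and filament linkers 5 had positive and 6 negative ratios throughout (1 and 4 with median centring). The alpha-actinin genes among them, named after their values were seen, were Actn3 (0.86 and 0.45, limma adjusted p = 0.381) and Actn4 (0.32 and -0.36). The sign of Actn3 was thus opposite to that of Actn2 on both arrays. Of 29 other adhesion plaque and membrane complex genes 9 had positive and 6 negative ratios throughout (6 and 6 with median centring), with 0 past the 1.5-fold rule in either list and medians of -0.07 and 0.04. Limma called 0 genes in each of these 3 lists. At an unadjusted p under 0.05 it held 7 of 17, 2 of 16 and 2 of 29, beside 5.11% of all tested genes. With trend and robust estimation it called 6, 2 and 0, beside 705 of all 21238 genes.

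Markers of the cell types in the ureter, some of which make these filaments, are given as values beside the members. All 8 smooth muscle markers were the brighter in labelled Smad4cKO on each array (6 of 8 with median centring), with a median of 1.44. By the 1.5-fold rule 6 of them were brighter, as were 0.49% of all tested genes. Limma called 0 of the 8, and 0 with median centring, but 6 from processed signals and 6 with trend and robust estimation. Those last 2 settings called 303 and 705 genes in all. The 4 with the largest smaller ratio were the myosin gene Myh11 (2.08 and 2.65), the calponin gene Cnn1 (1.65 and 2.17), the actin gene Actg2 (1.42 and 2.08) and the actin gene Acta2 (1.03 and 2.14). Their limma adjusted p values were 0.066, 0.077, 0.104 and 0.181, in that order. The summed processed signal of the list was 42263 and 61447 in the labelled Smad4cKO, and 26945 and 27139 in the labelled control. The ratio of Des (0.71 on each array) lies in the same direction and below those of these 4 genes. Of the list's remaining genes, named after their values were seen, Myocd (0.90 and 1.68) and Mylk (0.87 and 1.00) lay above Des. Tagln (0.07 and 0.53) and Smtn (0.20 and 0.12) lay below it. Of 11 neuronal and glial markers, 8 were dimmer and 1 brighter on each array, with a median of -0.28. Their summed signal was 9100 and 10909 in the labelled Smad4cKO, and 12044 and 12230 in the labelled control, beside the dimmer neuronal filament genes. Of 11 endothelial and pericyte markers, 2 were brighter, 3 dimmer and 6 of changing sign. The dimmer ones, named after their values were seen, are pericyte markers: Kcnj8 (-0.53 and -0.57), Rgs5 (-0.43 and -0.67) and Abcc9 (-0.13 and -0.26), with limma adjusted p = 0.381, 0.445 and 1.00. The pericyte markers Cspg4 (-0.18 and 0.24) and Notch3 (-0.10 and 0.18) of the same list, also named afterwards, changed sign. The list's median was 0.04, and their summed signals were 33916 and 39105 against 34608 and 38407. Nes, which such cells can also make, had no shared sign. The part of these cell types in the members' ratios was not tested.

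**Figure D5:**
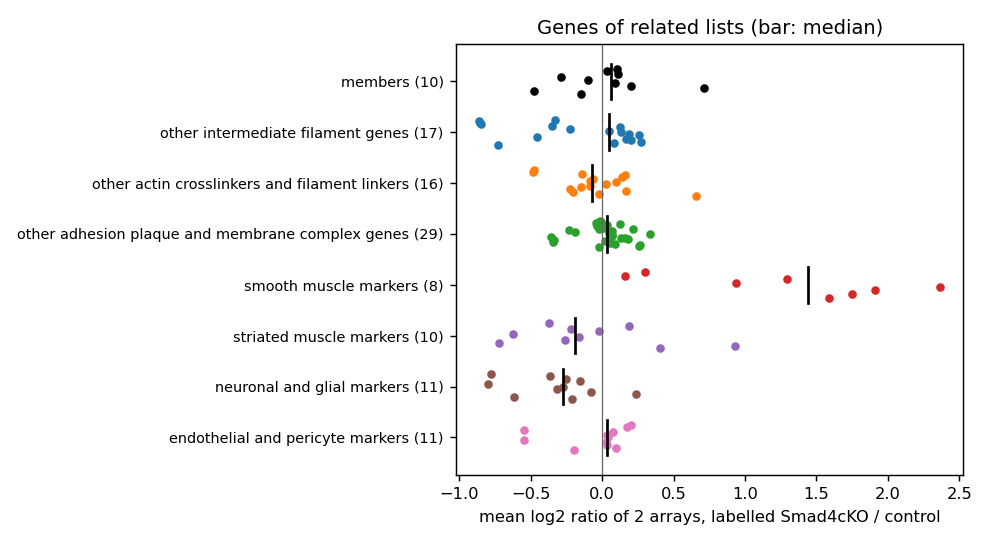
Mean log2 ratio of the 2 arrays (horizontal, labelled Smad4cKO over labelled control) for each tested gene of the members and of 7 related lists, with the number of genes in brackets and the median as a bar. The smooth muscle markers have a median of 1.44, the neuronal and glial markers -0.28 and the members 0.06, with Des as the member farthest to the right.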

How the data were processed

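Per the file headers, the authors scanned both arrays with Agilent software (Feature Extraction 10.7.3.1; design on mm9), and the files hold intensities. Per the file headers, each spot has an intensity per channel: the mean of the spot, the median of its background, and a processed signal after the software's background subtraction and dye normalization. Both arrays share 1 slide and scan, so there is no batch by either. The values the authors deposited beside them are signed folds (a ratio, or minus its inverse); how they were made is not given in the sources. They were compared with the processed signals on 25535 probes with 1 spot, above background in all 4 channels and with a deposited fold beyond 1 in size. There they matched within 0.0363 (log2) on array 1 and 7.21e-10 on array 2 after a constant. Over all probes with finite values (39390 and 39418), 69.3% and 69.6% lay within 0.02 after a constant. Both columns had a median of 1.

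Mean signals were corrected with normexp (offset 50) and normalized by loess, control spots having weight 0 (with limma 3.58.1, statmod 1.5.0, data.table, R 4.3.3). The 1377 control spots and spots marked as outliers (237 and 221, none of a member) were left out. Probes above background in the same labelled group on both arrays were tested (26670 of 39429), and the brightest stood for its gene. Names came from the files or, for 26412 probes, from RefSeq (GRCm38.p6). Ratios were tested against 0 with lmFit and eBayes (1 residual and 4.89 prior degrees of freedom; the SE rests mostly on all genes). All 10 members are named; of other lists, genes past the 1.5-fold rule, up to 4. The members and lists were chosen with earlier results of these data known. The alternatives were other background corrections, scalings, probe filters, probe choices, eBayes settings, a fit of separate channels and single arrays.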

Additional observations from a re-analysis of the deposited data

Results flagged for a closer look

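In 5 members the female pair (array 1) and the male pair (array 2) had opposite signs. Each sex is represented by 1 array and the dyes were exchanged between them, so the difference was not tested. The log2 ratios, labelled Smad4cKO over labelled control, were -0.75 and 0.96 for Vim, 0.28 and -0.11 for Nes, -0.25 and 0.66 for Flna, -0.045 and 0.12 for Vcl, and -0.34 and 0.14 for Nexn. Among all tested genes 60.3% changed sign in this way.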

How the results depend on the processing

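There were 2 arrays, and the signals of Synm and Actn2 were low. Des kept its sign in all 14 alternatives (0.71 to 0.78) and its adjusted p ranged from 2.9e-04 to 1.00. It was called from processed signals and with trend and robust estimation, and the second also called Actn2 (-0.71 to -0.39 over its alternatives, adjusted p 0.0016 to 1.00). Members called by limma were 0, but 1 from processed signals and 2 with trend and robust. Members dimmer by the 1.5-fold rule were 0, but 1 from processed signals, from the authors' deposited values and at 1.3-fold. With median centring 2 members, Vim and Flna, passed in opposite directions. At 2-fold 0 members were brighter and 0 opposite. Single arrays gave 1 to 3 members brighter and 0 to 1 dimmer, 256 to 635 genes brighter and 242 to 684 dimmer.

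Over all genes limma called 1, but 66 with normexp offset 10, 303 from processed signals, 149 from the authors' deposited values, 705 with trend and robust, 4 with probes above background in both channels, 2 with every probe fitted, and 0 with median centring, outlier spots kept or the mean of a gene's probes. The 1.5-fold rule gave 104 brighter and 111 dimmer genes, but 184 and 199 from processed signals and 177 and 184 from the authors' deposited values. Each ratio is a pairing within an array; without that replicate block (separate channels) limma called 32 genes and 0 members, with Des at 0.71 (adjusted p = 0.091). Signs turned for Synm at its other tested probes (-0.071 and -0.023), and, with 1 array left out, for Nes (-0.11 to 0.28), Nexn (-0.34 to 0.14), Vim (-0.75 to 0.96), Flna (-0.25 to 0.66) and Vcl (-0.045 to 0.12). The causes were not tested.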
